A study of Mus musculus with 8 samples.

Results

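The interferon-stimulated genes of cultured mouse embryonic fibroblasts are described here across 8 libraries, 4 of wild-type (WT) and 4 of Dp1Tyb cells. The 43 genes were taken by symbol from a fixed list, and all 43 had a row in the table of 19493 genes and passed the filter on low counts that left 16470 genes for testing. The list was drawn up with the values of these libraries known, among them the high level in WT replicate 1 and the levels of both genotypes. The values below are therefore descriptions, and the adjusted p-values tell only which genes the fit over the whole table called. Both groups were fibroblasts from E14.5 littermate embryos, WT or Dp1Tyb, of a strain background that the labels give as C57BL/6J.129P2 and that the methods describe as backcrossed to C57BL/6JNimr, with no drug, cytokine or infection named for any library. Dp1Tyb cells carry a duplication of chromosome 16 from Lipi to Zbtb21 (chr16:75540514-97962622, GRCm38) and so hold 3 copies of each gene in it where WT cells hold 2. Mx1 and Mx2 lie inside the duplication and the other 41 genes outside it, 4 of them (Rtp4, Parp9, Parp14 and Dtx3l) on the same chromosome before its duplicated part. The labels do not say which libraries came from the same litter or culture day, and where they share one the p-values measure only the spread between these libraries.

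Type I interferons are secreted when a cell senses foreign nucleic acid, and bind a receptor built of Ifnar1 and Ifnar2 on the same or neighbouring cells. The receptor's kinases, Jak1 and Tyk2, phosphorylate STAT factors, Stat2 among them, which join Irf9 in the factor ISGF3, and ISGF3 binds the interferon-stimulated response element (ISRE) in front of target genes. The targets encode nucleic acid sensors, enzymes that degrade or modify RNA, proteins that hold back translation or virus release, and regulators of the pathway itself. Fibroblasts respond strongly to interferon, and also keep a low level of many of these transcripts without infection through a constitutive low supply of interferon.

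The ISRE core was searched as TTTC, 2 free bases and TTTC again, on both strands, in the RefSeq promoter windows of GRCm38.p6, each of 300 bases with 250 before the gene's start. Of the 43 genes, 34 had a window, and 13 of these (38.2%) held the core, against 3.99% of all 27025 genes with a window. Ifit1, one of the most strongly interferon-induced genes of mammalian cells, is shown with the whole stretch before its start (chr19:34640639-34640888 on the plus strand), since it holds 2 cores close together. In all sequences the capitals mark the ISRE core, or its reverse complement.
Ifit1: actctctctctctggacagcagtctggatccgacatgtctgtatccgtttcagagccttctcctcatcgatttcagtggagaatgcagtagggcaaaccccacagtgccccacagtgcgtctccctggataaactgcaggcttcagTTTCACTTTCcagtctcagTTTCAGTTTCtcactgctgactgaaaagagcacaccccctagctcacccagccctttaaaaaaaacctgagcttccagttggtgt

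The stretches around the cores of 8 more genes are shown because the levels of these genes across the libraries differed, from Ifit3 and Isg15, with a high WT replicate 1, to Apol9a, whose groups did not overlap. They lie at chr19:34583348-34583441 on the plus strand, chr4:156200850-156200921 on the minus strand, chr10:128270251-128270310 on the plus strand, chr12:26456538-26456597 on the minus strand, chr8:71537562-71537627 on the minus strand, chr5:120907526-120907570 on the minus strand, chr5:120777700-120777759 on the minus strand and chr15:77411099-77411164 on the minus strand, and each is written in the direction of its gene. Overlapping cores run together in one stretch of capitals.
Ifit3: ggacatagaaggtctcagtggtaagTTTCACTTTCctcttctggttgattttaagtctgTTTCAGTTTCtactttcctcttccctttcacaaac
Isg15: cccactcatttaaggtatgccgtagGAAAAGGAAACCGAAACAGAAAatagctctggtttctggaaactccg
Stat2: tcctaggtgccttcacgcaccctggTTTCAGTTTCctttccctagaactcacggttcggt
Rsad2: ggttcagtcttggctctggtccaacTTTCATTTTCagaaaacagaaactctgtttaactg
Bst2: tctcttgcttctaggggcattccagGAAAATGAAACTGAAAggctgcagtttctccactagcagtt
Oas1a: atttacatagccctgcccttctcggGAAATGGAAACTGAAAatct
Oas3: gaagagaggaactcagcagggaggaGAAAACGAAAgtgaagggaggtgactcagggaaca
Apol9a: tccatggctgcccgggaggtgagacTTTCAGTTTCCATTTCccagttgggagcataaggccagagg

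Ifit3 held 2 separate cores, and Isg15 held 3 overlapping ones on the opposite strand. In Stat2, Rsad2 and Oas3 a single core was found. The core of Ddx58, Eif2ak2 and Ifih1 lay at or after the start in their windows and is not shown, and Apol9b carried the same stretch as its neighbour Apol9a. The core of the gamma-activated site, TTC, 3 free bases and GAA, was found in 5 of the 34 genes (14.7%), against 9.55% of all genes with a window. A match is a description of the letters only, and binding was not measured.

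Levels are given on 2 scales. Spike-in normalised counts are raw counts divided by a size factor from the ERCC transcripts, synthetic RNAs added at a fixed amount per cell, so they follow the RNA recovered per cell. CPM values, scaled by the TMM method to the library's own total, set each gene against the other genes of its library. Total counts ran from 17698900 to 26471758 per library, spike-ins took 0.882% to 1.65% of them, and endogenous RNA per spike-in ran from 0.688 to 1.31, with no order by genotype. All libraries carry the same lane code, so no sequencing batch was named. Summed markers of fibroblasts ran from 24041 to 34279 CPM, and those of macrophages and other leukocytes, the next most abundant type, from 222 to 537 CPM. Xist, transcribed from the inactive X chromosome, stood at 36188 counts in WT replicate 2 and 38867 in Dp1Tyb replicate 1 and at 9 to 60 in the other 6 libraries.

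Stat2, the member of ISGF3 that activates transcription, stood at 3417, 619, 592 and 699.7 spike-in normalised counts in WT replicates 1 to 4 and at 3019.5, 651, 1183 and 1161 in Dp1Tyb replicates 1 to 4. WT replicate 1 and Dp1Tyb replicate 1 were far above the other 6 libraries, and the genotypes overlapped, since Dp1Tyb replicate 2 lay below WT replicate 4. In CPM, by contrast, every Dp1Tyb library was above WT replicates 2 to 4, at 42.3 or more against 39.7 or less. Irf9, which gives ISGF3 its DNA specificity, held 1227, 490.5, 388 and 557 counts in WT and 1229, 549, 784 and 858 in Dp1Tyb. The same 2 libraries were again highest, at nearly equal levels. Irf7, the factor that amplifies interferon production, held 453, 106, 95.3 and 145 in WT and 431, 223, 227 and 322 in Dp1Tyb. Every Dp1Tyb library was above WT replicates 2 to 4, and WT replicate 1 was above all of them. The fitted log2 fold change of Stat2, Dp1Tyb over WT, was 0.18 (SE 0.32) over the 8 libraries and 1.25 (SE 0.37) without WT replicate 1, and that of Irf7 moved from 0.60 (SE 0.36) to 1.39 (SE 0.39). For Stat2 the value was -0.41 without Dp1Tyb replicate 1. Leaving out WT replicate 2, 3 or 4 gave -0.065, -0.072 and -0.046. Leaving out Dp1Tyb replicate 2, 3 or 4 gave 0.43, 0.28 and 0.28. Irf9 overlaps Rnf31 on its own strand and Irf7 overlaps Phrf1 on the other, so part of their counts may belong to these neighbours.

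Isg15 encodes a ubiquitin-like protein that is joined to other proteins, with Uba7 as its activating enzyme, Ube2l6 as its conjugating enzyme and Herc6 as its main ligase in the mouse, and Usp18 removes it and also dampens the receptor. Isg15 held 831, 169.7, 138 and 151 spike-in normalised counts in WT and 518, 428, 404 and 385 in Dp1Tyb. The 4 Dp1Tyb libraries lay close together, between WT replicates 2 to 4 below them and WT replicate 1 above them. In CPM they lay between the same libraries but spread more, from 14.0 to 29.8. Usp18 held 759, 141, 141 and 221 in WT and 838, 365, 354 and 396 in Dp1Tyb, with Dp1Tyb replicate 1 highest of the 8. Uba7 held 389, 148, 117 and 129 in WT and 210.2, 162, 197 and 221 in Dp1Tyb. Its Dp1Tyb libraries were above WT replicates 2 to 4 and below WT replicate 1, at 197 ± 25.9 (SD, n = 4) against 131 ± 15.4 (SD, n = 3). For Isg15 the log2 fold change was 0.43 (SE 0.34) with all libraries and 1.51 (SE 0.38) without WT replicate 1. For Uba7 the corresponding values were 0.01 (SE 0.37) and 0.59 (SE 0.40), and Gm20661 overlaps it on the same strand. Without WT replicate 2, 3 or 4 the value of Uba7 was -0.10, -0.17 and -0.14, and with relative scaling -0.012. Without Dp1Tyb replicate 1 or 4 it was -0.010 and -0.039, and without Dp1Tyb replicate 2 or 3 it was 0.11 and 0.023. Ube2l6, Herc6 and Trim25, an antiviral ubiquitin ligase, were highest in WT replicate 1, which exceeded the mean of the other WT libraries by 2.38, 1.66 and 1.52 times in CPM.

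Ifit1, Ifit2 and Ifit3 encode proteins with tetratricopeptide repeats, of which Ifit1 binds the 5′ end of viral RNA and blocks its translation. They are neighbours on chromosome 19 (Ifit2 at chr19:34550694-34576419, Ifit3 at chr19:34583531-34588731 and Ifit1 at chr19:34640871-34650009). Ifit1 held 1883, 292, 275 and 329.7 spike-in normalised counts in WT and 1286, 776, 708 and 591 in Dp1Tyb. WT replicate 1 stood above every other library, and the 4 Dp1Tyb libraries above WT replicates 2 to 4. Ifit3 followed with 2036, 228, 278 and 288 in WT and 1486, 471, 541 and 444 in Dp1Tyb. Its ratio of WT replicate 1 to the mean of the other WT libraries, 5.75 in CPM, was the highest of the 43 genes. Ifit2 held 1219, 679, 508 and 740.0 in WT and 867, 631, 866 and 814 in Dp1Tyb. It was the flat one of the trio, with a ratio of 1.46, and its Dp1Tyb libraries overlapped WT replicates 2 to 4. In Ifit1 the log2 fold change came to 0.28 (SE 0.32) with all libraries and 1.496 (SE 0.38) without WT replicate 1. The values of Ifit3 were 0.06 (SE 0.32) and 1.48 (SE 0.38), and those of Ifit2 0.01 (SE 0.32) and 0.31 (SE 0.36). Without Dp1Tyb replicate 1, the highest library of its group, the fold change of Ifit1 was -0.00081 and that of Ifit3 -0.54, so the sign for both rested on single libraries. Ifit3 has a close copy, Ifit3b, and reads shared by both were not counted.

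**Figure D1:**
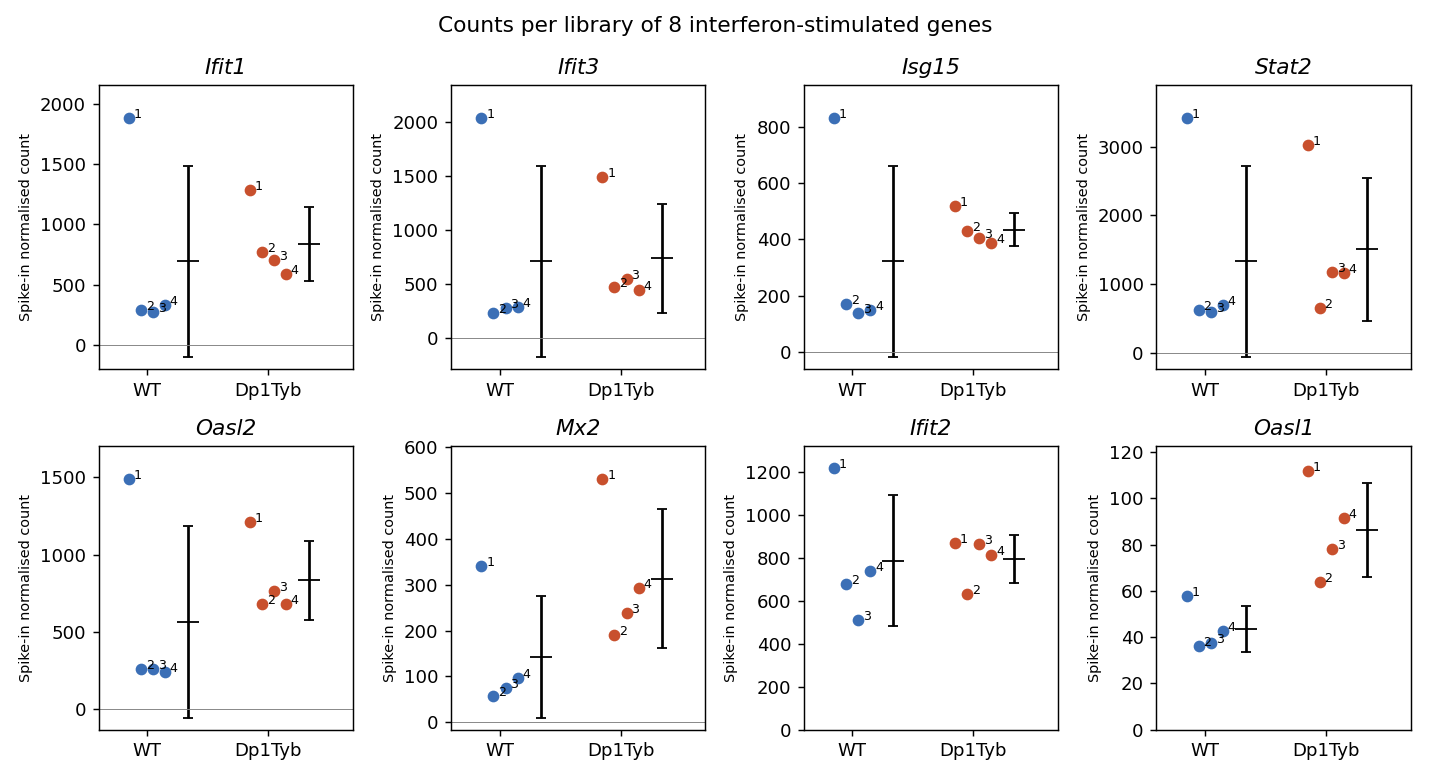
Spike-in normalised counts (linear axis) of 8 interferon-stimulated genes in 4 WT (blue) and 4 Dp1Tyb (red) libraries. Digits are replicate numbers, and the black dash and bar beside each group are its mean and SD (n = 4). In Ifit1, Ifit3, Isg15 and Oasl2 WT replicate 1 lies above all Dp1Tyb libraries and WT replicates 2 to 4 below them, whereas in Oasl1 the groups do not overlap.

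The 2′-5′ oligoadenylate synthetases sense double-stranded RNA and make the messenger that switches on RNase L, and Eif2ak2 encodes PKR, the kinase that halts translation on double-stranded RNA. Oasl2 held 1492, 258, 257 and 239.6 spike-in normalised counts in WT and 1212, 679, 761 and 679 in Dp1Tyb. On this scale WT replicates 2 to 4 agreed closely, at 252 ± 10.4 (SD, n = 3), and every Dp1Tyb library was over 2 times as high, while WT replicate 1 exceeded them all. In CPM WT replicates 2 to 4 spread more, at 13.7 ± 3.73 (SD, n = 3), and the Dp1Tyb libraries ran from 24.7 to 48.1. Oas1a held 234, 75.9, 67.1 and 79.5 in WT and 342, 174, 161 and 216 in Dp1Tyb, and Oasl1 held 57.6, 36.0, 37.4 and 42.7 in WT and 112, 63.8, 77.9 and 91.6 in Dp1Tyb. For Oasl1, which restrains the translation of Irf7, the groups did not overlap. Its WT replicate 1 was 1.12 times the mean of the other WT libraries in CPM and 1.49 times in spike-in normalised counts. Eif2ak2 held 2709, 1477, 1104 and 1773 in WT and 3389, 1465, 1920.0 and 2159 in Dp1Tyb, with Dp1Tyb replicate 2 below WT replicates 2 and 4. Fitted over the 8 libraries, the log2 fold change of Oasl2 was 0.57 (SE 0.32), and it was 1.73 (SE 0.38) without WT replicate 1 (edgeR, adjusted p = 0.0169). This call was lost with relative scaling (adjusted p = 0.285 in edgeR) and without both libraries numbered 1. The values of Oas1a were 0.97 (SE 0.38) and 1.596 (SE 0.41), and those of Oasl1 0.99 (SE 0.44) and 1.16 (SE 0.46). Oas2 and Oas3, at 0.608 and 0.181 RPKM (CPM per kilobase of exon), were scarce, and their WT replicate 1 was 4.76 and 4.94 times the mean of the other WT libraries. Oas1a has a close copy, Oas1g, and Eif2ak2 overlaps Gm26637 on the other strand.

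Where they are intact, Mx1 and Mx2 encode dynamin-like GTPases that block virus replication in the nucleus and cytoplasm respectively. They are the 2 members with 3 copies in Dp1Tyb cells (Mx1 at chr16:97447035-97462907 and Mx2 at chr16:97535308-97560900). Mx2 held 340.0, 57.1, 75.5 and 97.2 spike-in normalised counts in WT and 531, 191, 239 and 292 in Dp1Tyb. Every Dp1Tyb library was above WT replicates 2 to 4, but 3 of the 4 were below WT replicate 1. For Mx2 the log2 fold change was 1.14 (SE 0.37) with all libraries and 2.04 (SE 0.41) without WT replicate 1, with adjusted p of 1.00 and 0.00314 in edgeR. Without WT replicate 1 the mean of the Dp1Tyb libraries was 4.09 times that of the WT libraries (3.45 times in CPM), against the 3 to 2 of the copies. With WT replicate 1 kept, the means were 313 spike-in normalised counts in Dp1Tyb and 142 in WT. With relative scaling the adjusted p of Mx2 was 1.00 with all libraries and 0.278 without WT replicate 1, and Mx2 was not called without both libraries numbered 1. With replicate number as a block over the 8 libraries, edgeR called Mx2 with spike-in scaling (log2 fold change 1.395) and 0 members with relative scaling. Mx1 was near the detection limit, at 26, 11, 9 and 2 raw counts in WT and 25, 21, 27 and 8 in Dp1Tyb. Its fold change was 0.89 (SE 0.53) over the 8 libraries and 1.797 (SE 0.61) without WT replicate 1, and counting error alone is wide at such counts. Many laboratory strains, C57BL/6 among them, carry defective Mx1 and Mx2 genes, the annotation lists Mx2 as a polymorphic pseudogene, and the transcripts counted here say nothing of the proteins.

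Of the cytosolic sensors, Ddx58 encodes RIG-I and Ifih1 encodes MDA5, which detect viral RNA and start the production of interferon. Ddx58 held 2905, 1049, 968 and 1331 spike-in normalised counts in WT and 3032, 1605, 1906 and 2082 in Dp1Tyb, and Ifih1 held 1079, 464, 354 and 517 in WT and 1031, 576, 707 and 861 in Dp1Tyb. In both genes WT replicate 1 and Dp1Tyb replicate 1 were the highest libraries and WT replicates 2 to 4 the lowest. In Ddx58 the log2 fold change came to 0.46 (SE 0.32) with all libraries and 0.95 (SE 0.37) without WT replicate 1, and that of Ifih1 0.40 (SE 0.32) and 0.84 (SE 0.37). Dhx58, the regulator LGP2, had a higher ratio of WT replicate 1 to the other WT libraries, 3.49, than Ddx58 with 1.99, Ifih1 with 1.86 and Znfx1, an RNA helicase of mitochondria, with 1.42. Dhx58 and Znfx1 overlap the non-coding genes Dhx58os and Zfas1 on the other strand.

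Among the other antiviral effectors, Rsad2 encodes viperin, which makes a chain-terminating nucleotide, and Bst2 encodes tetherin, which holds budding virus at the cell surface. Rsad2 held 226, 44.6, 45.2 and 62.9 spike-in normalised counts in WT and 200.5, 77.1, 80.1 and 107 in Dp1Tyb, and Bst2 held 1027, 375, 205 and 345 in WT and 774, 627, 594 and 681 in Dp1Tyb. The Dp1Tyb libraries of both lay between WT replicate 1 and the remaining WT libraries, although in CPM Dp1Tyb replicate 2 of Bst2 (43.6) was above WT replicate 1 (41.4). The mean of the 4 Dp1Tyb libraries of Bst2 was 669 ± 78.5 (SD, n = 4). Fitted over the 8 libraries, the log2 fold change of Rsad2 was 0.31 (SE 0.41), and it was 1.202 (SE 0.44) without WT replicate 1, and that of Bst2 0.46 (SE 0.33) and 1.12 (SE 0.37). Without Dp1Tyb replicate 1 the value of Rsad2 was -0.092. Cmpk2, the neighbour of Rsad2, had a ratio of WT replicate 1 to the other WT libraries of 3.03, and Samd9l, an inhibitor of translation, one of 1.69.

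Parp14 and its neighbours Parp9 and Dtx3l, which work as a pair of ADP-ribosyl transferase and ubiquitin ligase, lie on chromosome 16 before the duplication (Parp14 at chr16:35832874-35871544, Dtx3l at chr16:35926511-35939151 and Parp9 at chr16:35938470-35972605). Parp14 held 1238, 429, 319 and 409 spike-in normalised counts in WT and 1131, 627, 663 and 720.3 in Dp1Tyb. As in Ifih1, both libraries numbered 1 were at the top and WT replicates 2 to 4 at the bottom. For Parp14 the log2 fold change was 0.39 (SE 0.32) with all libraries and 1.03 (SE 0.37) without WT replicate 1. Parp9 and Dtx3l overlap head to head, and their WT replicate 1 was 1.77 and 1.86 times the mean of the other WT libraries. Parp12 was flatter, at 1.28 times.

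Of the remaining 11 genes, Xaf1, a promoter of cell death, held 745, 209, 149 and 203 spike-in normalised counts in WT and 580.0, 389.5, 342 and 384 in Dp1Tyb. Ifi27, a mitochondrial protein, held 949, 579.6, 306 and 406 in WT and 845, 602, 716 and 772 in Dp1Tyb. In both, all Dp1Tyb libraries lay above WT replicates 2 to 4 and below WT replicate 1. In CPM this did not hold for Ifi27. Its Dp1Tyb replicate 4 (28.1 CPM) was below WT replicate 2 (31.4), and its Dp1Tyb replicate 2 (41.9) above WT replicate 1 (38.3). Lgals3bp, a secreted glycoprotein that binds galectins, held 4641, 1699.8, 1647 and 2152 in WT and 4594, 2784, 3595 and 4722 in Dp1Tyb. Per length it was the most abundant of the 43, at 52.2 RPKM, and Dp1Tyb replicate 4 was its highest library. Ifi44 held 616, 131, 88.9 and 138 in WT and 735, 369.6, 281 and 283 in Dp1Tyb, with Dp1Tyb replicate 1 highest. In Ifi44 the log2 fold change came to 0.78 (SE 0.35) with all libraries and 1.81 (SE 0.39) without WT replicate 1 (edgeR, adjusted p = 0.0156). This call was lost with relative scaling (adjusted p = 0.508 in edgeR) and without both libraries numbered 1. The values were 0.63 (SE 0.32) and 1.102 (SE 0.37) for Lgals3bp, 0.38 (SE 0.34) and 1.19 (SE 0.38) for Xaf1, and 0.39 (SE 0.33) and 0.78 (SE 0.37) for Ifi27.

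Apol9a and Apol9b, a pair of nearly identical apolipoprotein L genes on chromosome 15, went another way. Apol9a held 119.6, 61.8, 52.2 and 91.3 spike-in normalised counts in WT and 225, 164, 149 and 199 in Dp1Tyb, and Apol9b held 68.7, 68.1, 24.7 and 59.3 in WT and 131, 95.3, 110.4 and 93.2 in Dp1Tyb. On this scale the groups overlapped in neither gene, and WT replicate 1 was 1.75 and 1.35 times the mean of the other WT libraries. In CPM these ratios were 1.37 and 1.07. The fold change of Apol9a, 1.19 (SE 0.40), was the highest of the 43 with all libraries, and that of Apol9b was 0.97 (SE 0.43). Reads that match both copies were left out of the counts, so the levels of this pair are uncertain. With relative scaling the groups of Apol9b overlapped, and the adjusted p of Apol9a was 0.228 in edgeR. Epsti1, at 0.355 RPKM, followed the other members least, with Dp1Tyb replicates 2 and 3 among its lowest libraries.

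**Figure D2:**
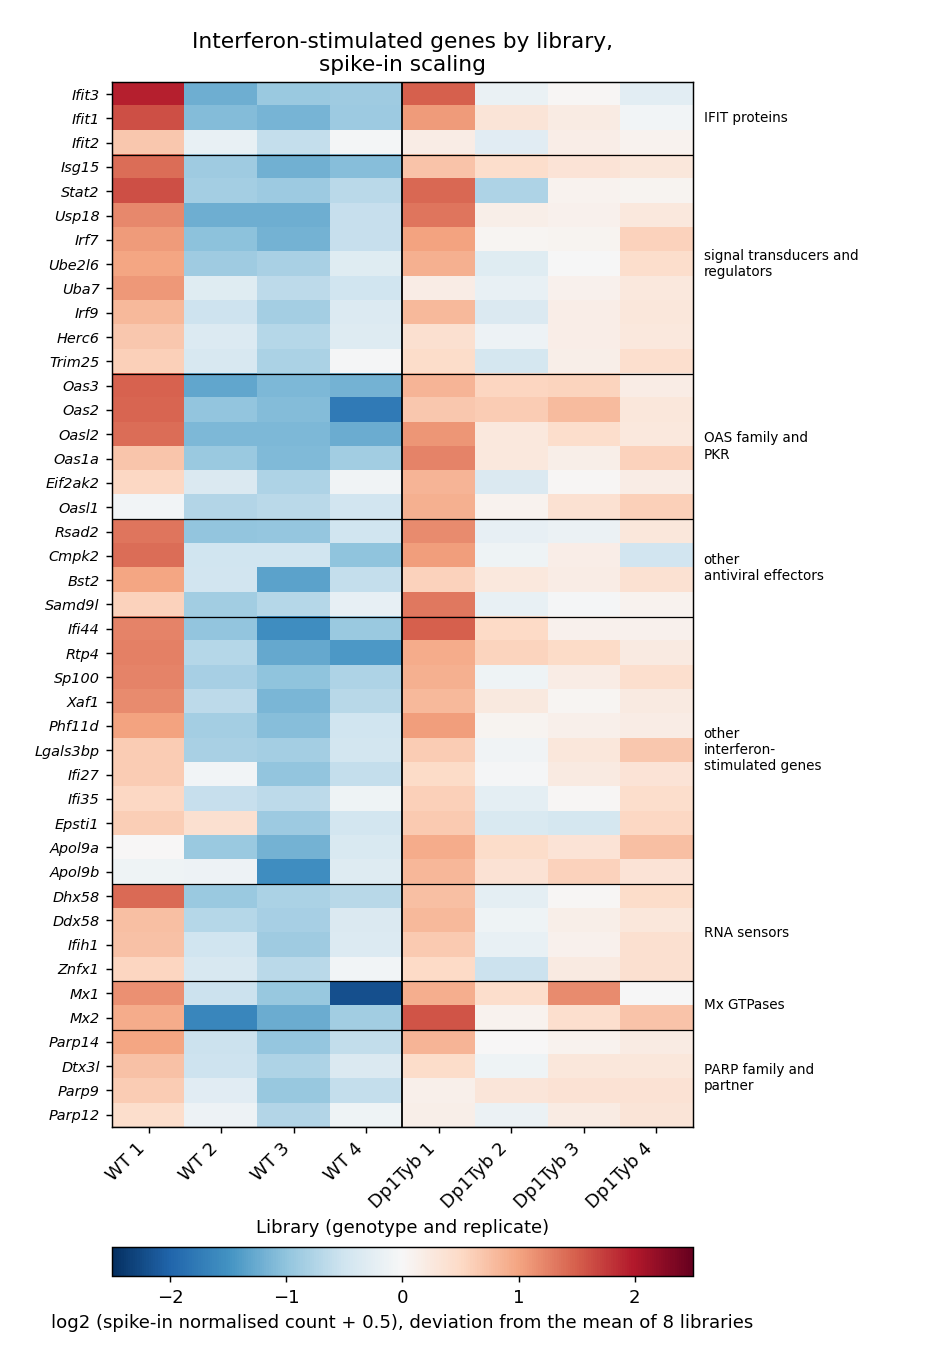
Each row is one of the 43 genes, grouped by role, and each column a library. Colour gives the log2 deviation of the spike-in normalised count (0.5 added) from the gene's own average, with red above and blue below. Both libraries numbered 1 are red in most rows, WT replicates 2 to 4 blue, and Dp1Tyb replicates 2 to 4 near the middle.

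Read gene by gene, WT replicate 1 was the highest of the 8 libraries in 27 of the 43 genes with spike-in scaling, where 24.2% of all tested genes had it highest, and in 23 with relative scaling (19.4% of all). It was the highest WT library in 43 of 43 genes (49.1% of all) and in 40 with relative scaling (32.4% of all), the exceptions being Apol9b, Epsti1 and Oasl1. Dp1Tyb replicate 1 was highest in 14 genes (21.7% of all) and in 10 with relative scaling (18.8% of all). The 2 libraries numbered 1 formed the highest pair in 34 genes with spike-in scaling (17.7% of all) and in 19 with relative scaling (12.5% of all). In CPM the ratio of WT replicate 1 to the mean of the other WT libraries had a median of 2.38 over the 43 genes and ran from 1.07 for Apol9b to 5.75 for Ifit3. It exceeded 2 in 33 genes with spike-in scaling (11.5% of all) and in 24 with relative scaling (4.36% of all). By role its median in CPM was 4.77 for the 3 IFIT genes, 3.45 for the 2 Mx genes, 3.39 for the OAS genes and PKR, 2.38 for the signal transducers and regulators, 1.93 for the sensors and 1.81 for the PARP group. The 13 genes with an ISRE core in the window had a median ratio of 2.57, between 1.07 and 5.75, and the 21 without one 1.93, between 1.12 and 4.40.

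At the other end, WT replicate 4 was the lowest library in 31 of the 43 genes with relative scaling (13.7% of all tested genes) but in 5 with spike-in scaling (1.45% of all). Endogenous RNA per spike-in was 1.17 in this library, against 0.713 in WT replicate 3, which lifts its spike-in normalised counts. As a summary, each gene's log2 value was set against its own average across libraries and these deviations were averaged over the 43 genes. The result for WT replicates 1 to 4 was 0.93, -0.69, -0.96 and -0.63, and for Dp1Tyb replicates 1 to 4 it was 0.83, 0.01, 0.21 and 0.29. With relative scaling it was 0.68, -0.51, -0.48 and -0.85 in WT and 0.56, 0.55, 0.14 and -0.10 in Dp1Tyb. Dp1Tyb replicate 2, which held the least RNA per spike-in, thus moved from the lowest Dp1Tyb library to the level of Dp1Tyb replicate 1. On both scales WT replicate 1 was highest, WT replicates 2 to 4 were the lowest 3 and the Dp1Tyb libraries lay between. Summed over the 43 genes, the level was 1842, 889, 919 and 785 CPM in WT and 1755, 1597, 1275 and 1133 CPM in Dp1Tyb.

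**Figure D3:**
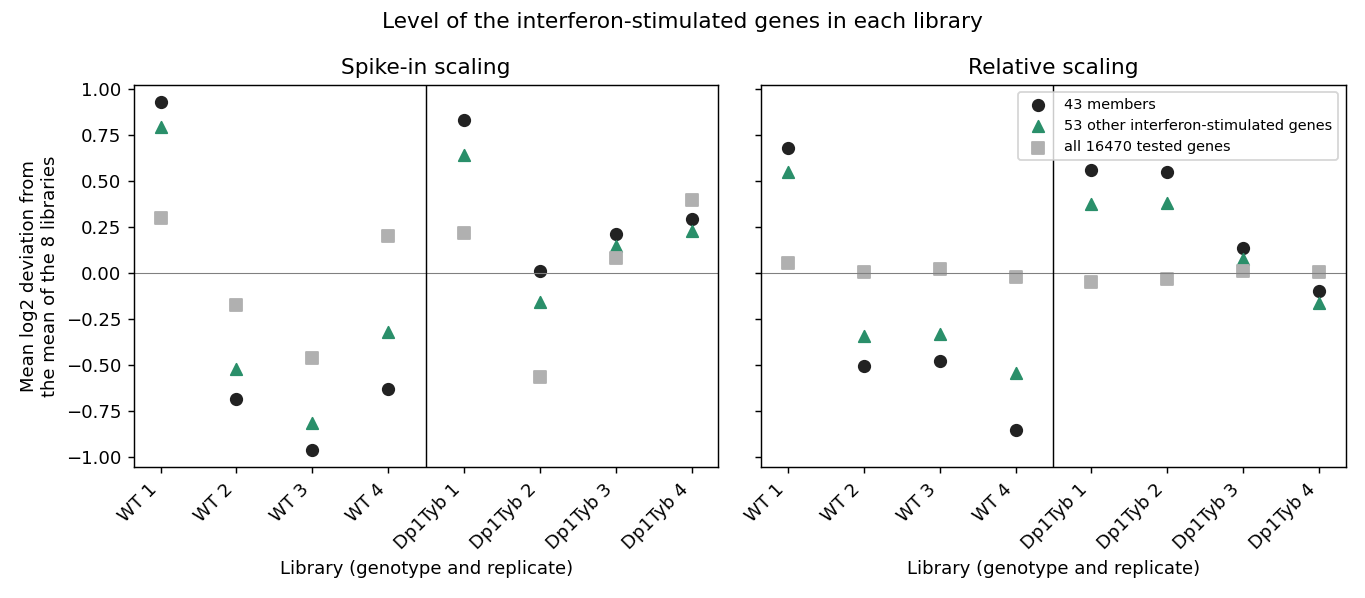
Level of each library, as the log2 deviation from a gene's average across libraries, averaged over the 43 members (black circles), 53 other interferon-stimulated genes (green triangles) and all 16470 tested genes (grey squares), spike-in scaling being on the left and relative scaling on the right. WT replicate 1 is the highest library of the members on both scales, and WT replicates 2 to 4 are the lowest.

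The experiment asked whether Dp1Tyb cells hold more mRNA in total than WT cells, which is why each fit was made on both scales. With all 8 libraries, edgeR's quasi-likelihood test called 0 of the 43 genes at an adjusted p under 0.05 with spike-in scaling (0.0121% of all tested genes were called higher) and 0 with relative scaling (0.0182%). At an unadjusted p under 0.05, 7 genes were higher with spike-in scaling (Apol9a, Apol9b, Ifi44, Lgals3bp, Mx2, Oas1a and Oasl1, against 0.85% of all) and 6 with relative scaling (the same without Ifi44, against 1.74% of all), and 0 were lower on either scale (0.316% and 2.53% of all). DESeq2 called 0 with spike-in size factors and 2, Apol9a and Oasl1, with its own (0.273% of all). The fold change was above 0 in 43 of 43 genes with spike-in scaling (70.4% of all) and in 41 with relative scaling (51.2% of all), the exceptions being Ifit2 and Uba7. The median log2 fold change was 0.40 against 0.11 over all tested genes with spike-in scaling, and 0.39 against 0.01 with relative scaling. The 43 genes share the same libraries and moved together, so these counts do not add up as 43 separate observations.

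These values shifted with the library left out. Without WT replicate 1 the median was 1.11 with spike-in scaling (0.22 over all genes) and 0.93 with relative scaling (0.02 over all genes). With spike-in scaling it was 0.18 without WT replicate 3 (-0.020 over all genes) and 0.24 without Dp1Tyb replicate 1. With relative scaling it was 0.23 without WT replicate 4 (0.00045 over all genes). Without Dp1Tyb replicate 1 the fold change was above 0 in 34 of the 43 genes with spike-in scaling and in 39 with relative scaling. The medians over all genes in these 2 fits were 0.051 and -0.00035. Leaving out WT replicate 1, edgeR called 3 genes higher with spike-in scaling, Mx2, Ifi44 and Oasl2 (0.0361% of all), and 0 with relative scaling (0.00602% of all). At an unadjusted p under 0.05 these fits held 34 genes (1.87% of all) and 38 genes (2.41% of all). With both libraries numbered 1 left out, an alternative chosen after the data had been seen, 42 of the genes were tested and edgeR called 0 on either scale (0.0122% of all higher with spike-in and 0.00609% with relative scaling). At an unadjusted p under 0.05, 22 were higher with spike-in scaling (0.895% of all) and 36 with relative scaling (2.78% of all), and the medians were 0.90 and 0.77.

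**Figure D4:**
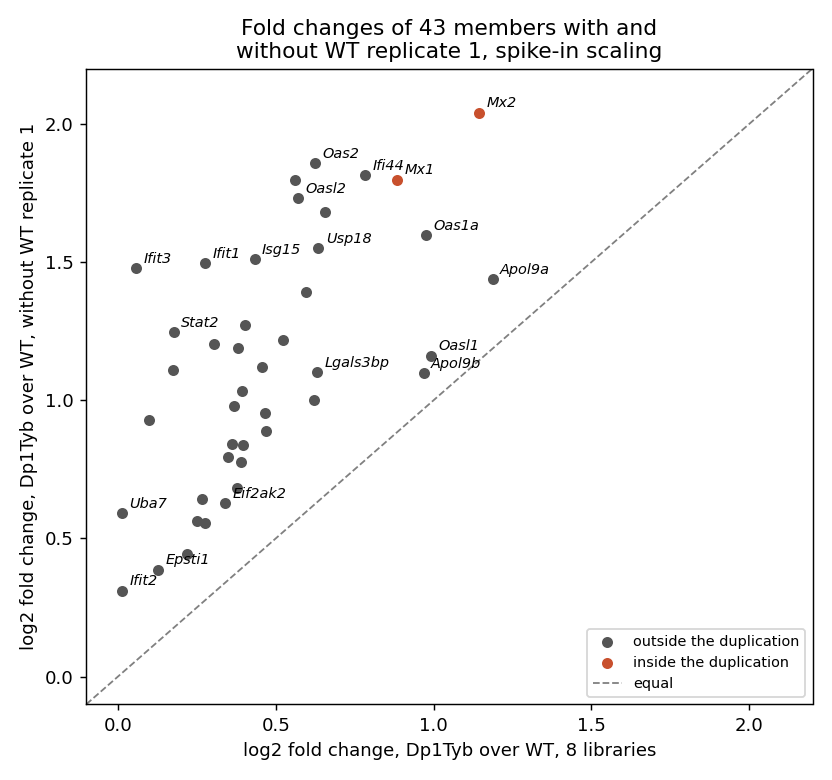
Fitted log2 fold changes, Dp1Tyb over WT with spike-in scaling, of the 43 genes over 8 libraries (horizontal axis) and without WT replicate 1 (vertical axis), with equal values on the dashed line and the genes inside the duplication in red. All 43 points lie above the line, Ifit3 moving from 0.06 to 1.48 and Apol9b from 0.97 to 1.10.

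Seen by overlap, every Dp1Tyb library was above every WT library in 3 genes with spike-in scaling, Apol9a, Apol9b and Oasl1 (0.285% of all tested genes), and in 2 with relative scaling, Apol9a and Oasl1 (1.64% of all). Set against WT replicates 2 to 4 alone, the 4 Dp1Tyb libraries were all higher in 34 genes (1.75% of all) and in 32 with relative scaling (3.55% of all). Dp1Tyb replicates 2 to 4 were above WT replicates 2 to 4 in 34 genes (2.42% of all) and 33 with relative scaling (5.64% of all). The 9 genes that overlapped in these comparisons with spike-in scaling were Eif2ak2, Epsti1, Ifi35, Ifit2, Irf9, Parp12, Stat2, Trim25 and Znfx1. With relative scaling the overlapping genes were Apol9b, Cmpk2, Eif2ak2, Epsti1, Ifi27, Ifit2, Ifit3, Mx1, Parp12 and Samd9l. Parp9 overlapped as well where all 4 Dp1Tyb libraries were compared. Only Eif2ak2, Epsti1, Ifit2 and Parp12 thus overlapped on both scales. On either scale 0 genes had all Dp1Tyb libraries below WT replicates 2 to 4 (0.2% and 3.08% of all) or below every WT library (0.14% and 1.52% of all). By role, 5 of the 6 OAS genes and PKR, 6 of the 9 regulators, 4 of the 4 other antiviral effectors, 3 of the 4 sensors and 2 of the 3 IFIT genes were in the group of 34. With relative scaling these counts were 5, 9, 2, 4 and 1. Of the 2 Mx genes, the 4 of the PARP group and the 11 remaining genes, 2, 3 and 9 were in the group of 34. Their counts with relative scaling were 1, 2 and 8.

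The 43 genes followed one another across the libraries. In log2 CPM the Pearson correlation of a pair of members had a median of 0.86 over the 8 libraries, 0.87 without WT replicate 1 and 0.89 without both libraries numbered 1, while that of pairs among all tested genes had a median near 0. The correlation of a member with the mean of the members had a median of 0.94, and 29 of the 43 genes exceeded 0.9, as did 0.795% of all tested genes. Oasl2 followed the mean most closely, at 0.99, and Epsti1 least, at 0.50. All these correlations rest on the same 8 libraries and are given as descriptions.

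Per length, the most abundant members were Lgals3bp at 52.2, Bst2 at 29.9, Isg15 at 23.3, Ifi27 at 20.7 and Samd9l at 18.6 RPKM, averaged over the libraries. Of the 43 genes, 12 were above 10 RPKM and 5 under 1 RPKM, the scarcest being Oas3 at 0.181 and Mx1 at 0.202. Oas3 and Isg15, far apart in level, had ratios of WT replicate 1 to the other WT libraries of 4.94 and 4.09.

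The rest of the pathway was taken from fixed lists. Of 21 type I interferon ligands, Ifnk was seen at 3 to 14 counts and was too low to test with all 8 libraries. Without WT replicate 1 it was fitted, with log2 fold changes of -0.64 (SE 0.63) with spike-in and -0.88 (SE 0.51) with relative scaling. For the other 20, Ifnb1 among them, no row was found in the table of counts, so they were not analysed here. Of 9 receptor chains and kinases, edgeR called 1 higher with relative scaling (0.0182% of all tested genes) and 0 with spike-in scaling (0.0121% of all), and at an unadjusted p under 0.05 it held 4 (1.74% of all) and 3 (0.85% of all). The called gene was Ifnar1, a receptor chain inside the duplication, at 1969, 2104, 2237 and 2076 raw counts in WT and 4021, 3011, 3523 and 2930 in Dp1Tyb, with a log2 fold change of 0.81 (SE 0.10, adjusted p = 0.049995 in edgeR). It was not called without WT replicate 1 (adjusted p = 0.0983). Ifnar2 and Ifngr2, also inside the duplication, had relative log2 fold changes of 0.65 (SE 0.09) and 0.75 (SE 0.09) and adjusted p of 0.0903 and 0.0537 in edgeR. In these 3 receptor genes the ratio of WT replicate 1 to the mean of the other WT libraries was 0.892, 0.968 and 0.855 in CPM and 1.15, 1.25 and 1.097 in spike-in normalised counts. Of 6 STAT and IRF factors outside the 43 genes, 6 inhibitors and 12 genes of upstream sensing, edgeR called 0 on either scale. At an unadjusted p under 0.05, 0 of these 24 genes were higher (0.85% of all) and 0 lower (0.316% of all) with spike-in scaling, and 1 was higher (1.74% of all) and 2 were lower (2.53% of all) with relative scaling. Without WT replicate 1, 2 were higher (1.87% of all) and 0 lower (0.186% of all) with spike-in scaling, and 3 were higher (2.41% of all) and 1 lower (2.14% of all) on the relative scale. Irf1, a factor induced by interferon that acts outside ISGF3, stood at 16.0, 16.7, 17.0 and 12.5 CPM in WT and 14.2, 21.5, 17.7 and 20.9 in Dp1Tyb. Its Dp1Tyb replicates 2 to 4 were above all WT libraries, while WT replicate 1 was close to WT replicates 2 and 3 and Dp1Tyb replicate 1 was below them.

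A further 58 interferon-stimulated genes outside the 43 were listed, and 53 were tested. EdgeR called 0 of them on either scale. At an unadjusted p under 0.05, 5 were higher with relative scaling (1.74% of all tested genes) and 0 with spike-in scaling (0.85% of all), and without WT replicate 1 these counts were 32 (2.41% of all) and 22 (1.87% of all). Their median log2 fold change was 0.28 with all libraries and 0.75 without WT replicate 1 with spike-in scaling, lower than the 0.40 and 1.11 of the 43 genes. WT replicate 1 was highest in 36 of the 53 with spike-in scaling (24.2% of all tested genes) and in 25 with relative scaling (19.4% of all). Their mean deviation of 0.79 in that library and 0.64 in Dp1Tyb replicate 1 stood beside 0.93 and 0.83 for the 43 genes, and on the relative scale 0.55 and 0.37 stood beside 0.68 and 0.56.

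Markers of macrophages and other leukocytes, cells that fibroblast cultures of whole embryos can hold, were present in every library. All 15 had counts, and their sum was 537 CPM in WT replicate 1, 392 to 467 in the other WT libraries, 419 in Dp1Tyb replicate 1 and 222 to 296 in the other Dp1Tyb libraries. They were thus highest in WT replicate 1, where 9 of the 15 were at their maximum, but lower in Dp1Tyb replicates 2 to 4 than in WT replicates 2 to 4, in the opposite order to the members. In such bulk libraries a change in the number of cells that express a gene and a change in RNA per cell cannot be told apart. The part of these cells in the levels of the 43 genes was not tested. Summed markers of endothelial cells ran from 31.8 to 78.9 CPM with Dp1Tyb replicate 1 highest. Kdr alone gave 72.3 CPM there, and Pecam1, Cdh5, Tek and Emcn were each highest in a WT library. The sums ran from 6.30 to 56.8 CPM for skeletal muscle, 39.8 to 63.2 for nerve and glia and 4.87 to 20.02 for epithelium. In the summed markers of skeletal muscle WT replicate 1 and Dp1Tyb replicate 1 were the lowest, at 11.7 and 6.30 against 14.8 to 56.8 CPM. They were also lowest in the sum of epithelium, at 6.48 and 4.87 against 9.10 to 20.02 CPM. Single markers did not all follow their sum. Epcam and Cdh1, at 0.626 CPM each, were highest in WT replicate 1, and Des was lower in WT replicate 4 (5.34 CPM) than in WT replicate 1 (8.40). The part of these markers' cells in the levels of the 43 genes was not tested. The libraries numbered 1, those with the highest levels of the members, differed in Xist, at 33 and 38867 counts.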

How the data were processed

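RNAseq was carried out by the authors on poly(A) RNA of 4 WT and 4 Dp1Tyb MEF cultures, after ERCC spike-ins had been added to equal numbers of cells in Trizol. According to the methods and the submitters' processing notes, reads were trimmed with Trim Galore, aligned to GRCm38 with TopHat2 2.0.12 and counted per gene with HTSeq, keeping reads with 1 alignment. The annotation and strand option are not given in the sources used here, which matters for genes that overlap. The deposited raw count table, with no normalisation, was used for everything. The deposited normalised counts and the authors' DESeq2 table (mean, log2 fold change, p-value) were not used.

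Groups and replicate numbers came from the sample labels. Symbols, positions and exon lengths came from GENCODE M21 of GRCm38, in which 19318 of 19493 IDs matched. Library factors were the spike-ins' median of ratios (spike-in scaling) or TMM factors of the endogenous genes (relative scaling). RPKM used relative CPM and exon length. After filterByExpr, Dp1Tyb was compared with WT with edgeR 4.0.16 under R 4.3.3 (quasi-likelihood, two-sided), with Benjamini-Hochberg adjustment over all 16470 tested genes at 0.05. The biological coefficient of variation was 0.351 with spike-in and 0.232 with relative scaling. The scripts were tested on simulated counts. Deviations used log2 values with 0.5 added.

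The 43 members and all lists were chosen with earlier results of these data known, and 1 gene of the pathway lists is not reported here. Every library value was given for 20 members named in a fixed list, the 3 with the highest and the 3 with the lowest fold change and any member called. The whole-table fit was repeated with spike-in totals, DESeq2 1.42.0, median-of-ratios factors, other filters, a pseudocount of 5, each library left out and replicate number as a block.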

Additional observations from a re-analysis of the deposited data

Results flagged for a closer look

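The gap between the highest or lowest library and the nearest other one was compared with the whole range of the group in 96 groups of 4 libraries, the WT and the Dp1Tyb libraries of the 43 genes, of the 4 pathway genes Ifnar1, Ifnar2, Ifngr2 and Irf1, and of the mean deviation of the 43 genes. It exceeded Dixon's 95% critical value for 4 samples in 27 groups, all of them of spike-in normalised counts. Chance gives about 1 in 20, but the genes were chosen with the high WT replicate 1 known and share the same libraries, so the number above the critical value restates that choice and is no test of it. In each of the 27 the library that stood apart was the highest, and one of the pair numbered 1.

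In WT, replicate 1 stood above the others in 22 genes, with a gap, as a fraction of the range, of 0.985 for Oasl2, 0.976 for Oas3, 0.967 for Ifit3, 0.966 for Ifit1, 0.962 for Stat2, 0.959 for Dhx58, 0.954 for Sp100 and 0.954 for Isg15. The gap was 0.926 for Oas1a, 0.914 for Oas2, 0.908 for Ifi44, 0.9005 for Cmpk2, 0.8995 for Xaf1, 0.899 for Rsad2 and 0.887 for Uba7. It was 0.881 for Parp14, 0.881 for Rtp4, 0.871 for Usp18, 0.862 for Irf7, 0.858 for Mx2, 0.851 for Phf11d and 0.831 for Lgals3bp. In Dp1Tyb, replicate 1 stood above the others in 5 genes, with a gap of 0.912 for Usp18, 0.908 for Phf11d, 0.907 for Ifit3, 0.887 for Samd9l and 0.846 for Oasl2. The difference between the genotypes in this respect was not tested. These gaps were not computed in CPM. On that scale Dp1Tyb replicates 1 and 2 stood at 33.3 and 25.4 for Usp18 and 16.2 and 14.3 for Phf11d. They stood at 59.0 and 32.8 for Ifit3, 195 and 120 for Samd9l and 48.1 and 47.2 for Oasl2.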

How the results depend on the processing

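Leaving out each library in turn moved the count of called members between 0 and 3 with spike-in scaling, the highest without WT replicate 1, and the median log2 fold change of the members between 0.18 and 1.11 with spike-in and between 0.23 and 0.93 with relative scaling. DESeq2 with its own size factors called 2 members in place of 0. Across all genes edgeR called 3 with relative scaling and DESeq2 with its own size factors 54. With spike-in scaling every Dp1Tyb library was higher in 3 members (0.285% of all tested genes). Against WT replicates 2 to 4 only this count was 34 (1.75% of all), and with both libraries numbered 1 left out 34 (2.42% of all). With relative scaling the 3 counts were 2 (1.64% of all), 32 (3.55% of all) and 33 (5.64% of all). The replicate numbers were not taken to pair the libraries, since no label gives them a meaning and the correlation of same-numbered libraries' deviations, at 0.37, 0.52, 0.03 and 0.33, was near 0 for number 3. WT replicate 3 and Dp1Tyb replicate 3 correlated best with another number, and the other 6 libraries with their own. With the replicate block edgeR called 1 member, Mx2 (log2 fold change 1.395), of 9 genes in all with spike-in scaling. With relative scaling it called 0 members of 7 genes, and the median of the members was 0.60 and 0.50. The biological coefficient of variation was lower with the block, at 0.253 with spike-in and 0.163 with relative scaling, against 0.351 and 0.232 without it. Whether the numbers mark shared litters or culture days was not tested.

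For 24 named members, 333 of 358 alternative values kept their direction and side of the threshold, 22 reversed and 3 passed the threshold, Mx2 in 2 settings and Oasl2 in 1. With relative scaling Uba7 was at -0.012 and Ifit2 at -0.030. Over the fits that left out 1 library each, the fold change ran from -0.41 to 1.25 for Stat2, from -0.00081 to 1.496 for Ifit1, from -0.54 to 1.48 for Ifit3, from -0.092 to 1.202 for Rsad2, from -0.17 to 0.59 for Uba7 and from -0.15 to 0.31 for Ifit2. The level of the members in Dp1Tyb replicate 2 was 0.55 and in Dp1Tyb replicate 4 -0.10 with relative scaling. A minimum of 10 counts in every library dropped 2 members, Mx1 and Oas3. Counts limit Mx1 most, with 2 in 1 library. The cause of these changes was not tested.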

Other observations

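Outside the 43 genes and the pathway lists, the 10 tested genes whose log2 CPM followed the mean of the members most closely over the 8 libraries were Ifi205, Hscb, F830016B08Rik, Il1rn, Tmem176a, Lekr1, Pebp1, Gm4951, Emc9 and Trappc6a, with Pearson correlations from 0.98 down to 0.95. Ifi205, a member of the interferon-inducible p200 family, stood at 5.18, 2.38, 2.32 and 1.89 CPM in WT and 4.14, 4.67, 3.84 and 3.39 in Dp1Tyb. Il1rn, the antagonist of the interleukin 1 receptor, stood at 31.9, 23.1, 22.7 and 19.8 CPM in WT and 31.6, 34.7, 29.9 and 24.7 in Dp1Tyb. F830016B08Rik, at 17.3, 2.80, 3.65 and 2.14 CPM in WT and 11.6, 8.42, 6.59 and 5.29 in Dp1Tyb, had a steep rise in WT replicate 1, and Pebp1, a kinase inhibitor, a shallow one, at 162, 133, 126 and 116 CPM in WT and 154, 157, 135 and 132 in Dp1Tyb. The points share 8 libraries, and 10 genes picked out of 16470 by likeness would correlate highly in any case, so the values are descriptions.

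Without WT replicate 1 the 10 closest genes were Vps26c, F830016B08Rik, Pigc, Prr32, Ifi205, Il1rn, Dera, Tmem86a, Tmed4 and Cdkn2b. Ifi205, F830016B08Rik and Il1rn were in both sets. Cdkn2b, a cyclin-dependent kinase inhibitor, stood at 35.8, 31.4, 28.5 and 23.1 CPM in WT and 49.2, 44.4, 40.3 and 38.0 in Dp1Tyb.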
